A study of Mus musculus with 49 samples.

Results

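The data described here are the net response of wild-type (WT) mouse CD8+ T cells to 48 h of culture with interleukin-2 (IL-2), measured by RNA-seq of polyadenylated RNA. Members were chosen by their labels as the WT samples at 0 h and at 48 h in both mouse lines of the study, and they comprised 12 of the 48 RNA-seq samples. The cells came from spleens of adult C57BL/6J mice and were enriched by magnetic beads. Lines carrying a tyrosine-to-phenylalanine mutation in STAT5A or STAT5B were bred from heterozygous parents, and the WT samples used here are littermates from each line that carry neither mutation. There were 3 WT samples from the STAT5A line at 0 h, 3 from the STAT5A line at 48 h, 3 from the STAT5B line at 0 h and 3 from the STAT5B line at 48 h. The 0 h cells were freshly isolated and saw no IL-2, and the 48 h cells were cultured in 500 IU/ml of recombinant human IL-2. No culture without IL-2 was among the samples, so the effect of IL-2 and that of 48 h in culture cannot be told apart. WT samples at 4 h and 24 h in IL-2 (6 each) are given beside the comparison as levels without a test. The labels do not say that samples came from separate mice, so p-values measure the spread between these samples, which may be technical.

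IL-2 binds a receptor made of IL2RA, IL2RB and the common gamma chain IL2RG, and the receptor-bound kinases JAK1 and JAK3 phosphorylate STAT5A and STAT5B. The phosphorylated STAT5 proteins enter the nucleus and bind target genes, among them genes of feedback inhibitors, survival factors and cyclins. Resting CD8+ T cells are small and do not divide. On stimulation they grow, build ribosomes, switch to glycolysis, copy their DNA, divide and fill cytotoxic granules, while the transcription factors that maintain the resting state fall.

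Between 39114574 and 60200653 reads per sample fell on the transcripts (median 47077781 over the 12 samples). All 12 samples had the marker genes of CD8+ T cells. Cd8a, which encodes the CD8 alpha chain, read 145.99 RPKM at its lowest, 200.2 at its median and 226 at its highest over the 6 samples at 0 h, and 214, 234 and 275 RPKM at 48 h. The ranges overlapped, and neither Cd8a (log2 fold change 0.18, SE 0.089) nor Cd8b1 (−0.10, SE 0.088) was called. RPKM is reads per kilobase of transcript relative to the total mapped in that sample and gives a share of the library, not molecules per cell. The reads on the transcripts were 69.22% to 74.06% of those mapped in the 6 samples at 0 h and 80.54% to 84.43% in the 6 at 48 h, without overlap, a log2 ratio of 0.22 between the means. The fitted fold changes are scaled to the reads on the transcripts and by TMM, which gives a factor per sample. These factors were 1.006 to 1.027 at 0 h and 0.9714 to 0.9977 at 48 h. RPKM levels and sums at 48 h thus stand higher against 0 h than the fitted fold changes, by somewhat less than 0.22. In bulk RNA, fewer cells of a type and less RNA per cell cannot be told apart. Every sample carried the female pattern, with Xist between 31.2 and 65.4 RPKM and the 4 measured Y-linked genes at a mean of at most 0.0177 RPKM at either time.

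Samples 1 and 2 of the STAT5A line at 0 h stood apart before any comparison. They lay at −32.0 and −30.5 on the second principal component of log2 CPM (counts scaled to the size of the library), which held 3.35% of the variance, whereas sample 3 of that group lay at 16.7, near the STAT5B line. In the same 2 samples Cd79a, a signaling chain of the B cell receptor, read 56.7 and 65.0 RPKM against 18.4 to 22.9 in the other 4 samples at 0 h. Myc was also higher in them, at 43.2 and 53.5 RPKM against 19.1 to 21.7 in the other 4. Samples 1 and 2 of the STAT5A line at 48 h likewise had the highest Cd79a of the 6 samples at that time (11.6 and 9.76 RPKM). The first component held 86.6% of the variance and separated 0 h from 48 h.

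Of 14132 genes tested with edgeR's quasi-likelihood test (Benjamini-Hochberg adjusted p at most 0.05 and a change of at least 2-fold), 2307 were higher at 48 h (16.3% of those tested) and 3027 were lower (21.4%). These 2 shares are the background for the counts over every list of genes that follows. A change of any size passed the adjusted p threshold for 11973 genes (84.7%), and the median log2 fold change over all genes tested was −0.02. In 2261 of the genes called higher and 2708 of those called lower, the 3 samples at 48 h lay wholly above or wholly below the 3 at 0 h within each line. Rises of at least 4-fold numbered 669 and falls 1431. Rises of at least 16-fold numbered 105 and falls 381. The excess of falls lay among genes of low level. Among the 10899 genes with a mean of at least 1 RPKM at either time 2019 were higher and 1356 lower, and among the 714 with a mean of at least 100 RPKM 203 were higher and 66 lower. The split of calls also depends on the scale. Of all calls 43.3% were higher in the edgeR fit and 50.7% in edgeR on the 11032 genes with at least 1 RPKM in at least 3 samples, against 72.8% with limma on log2(RPKM + 1) and 68.8% with limma on log2(RPKM + 0.1), which test the same 11032 genes and have medians of 0.26 and 0.31 over them, against 0.01 in edgeR. By its construction RPKM carries the log2 ratio of 0.22 given above for the mapped reads. Against the edgeR fit the shift is smaller than this, since the TMM factors make up a part. Whether anything else shifts the split was not tested. Without the 2 STAT5A-line samples at 0 h that stood apart, 2368 genes were higher and 3069 lower.

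**Figure D1:**
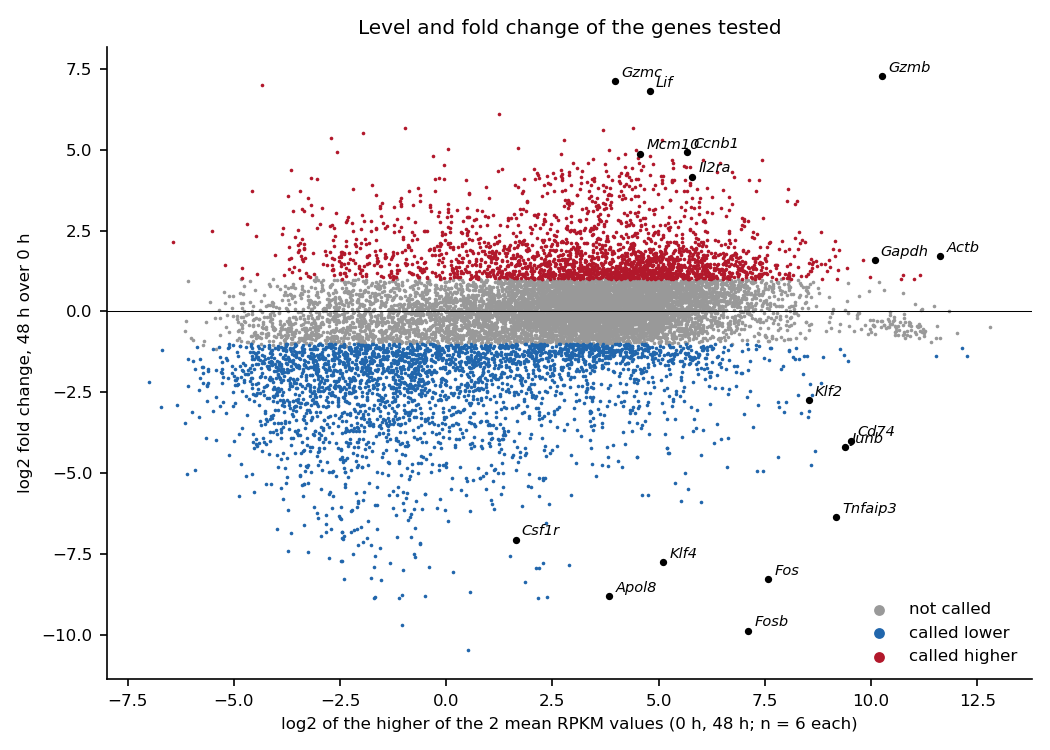
Log2 fold change at 48 h over 0 h (y axis) against the log2 of the higher of the mean RPKM values at 0 h and 48 h (x axis, n = 6 samples each) for the 14132 genes tested, with genes called higher in red, called lower in blue, not called in gray and labelled genes in black. Gzmb stands at the upper right with a log2 fold change of 7.29, and most large falls lie at low level on the left, with Fos, Fosb and Tnfaip3 as abundant exceptions.

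The calls were largely shared by WT cells of both lines. Taken alone, the STAT5A line had 2277 genes higher and 2962 lower, and the STAT5B line had 2383 higher and 2898 lower. Both lines called 4592 genes the same way, and 0 genes were called in opposite directions. The difference of the response between the lines was tested directly. It was called for 0 genes (0% of 14132) by edgeR, with 2001 genes at an unadjusted p under 0.05, and for 4 genes by DESeq2. With 3 samples per group, a count of 0 does not show that the responses were equal. The edgeR count depended on single samples, and without sample 3 of the STAT5A line at 0 h, the one that did not stand apart, the difference was called for 1.03% of the genes tested.

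**Figure D2:**
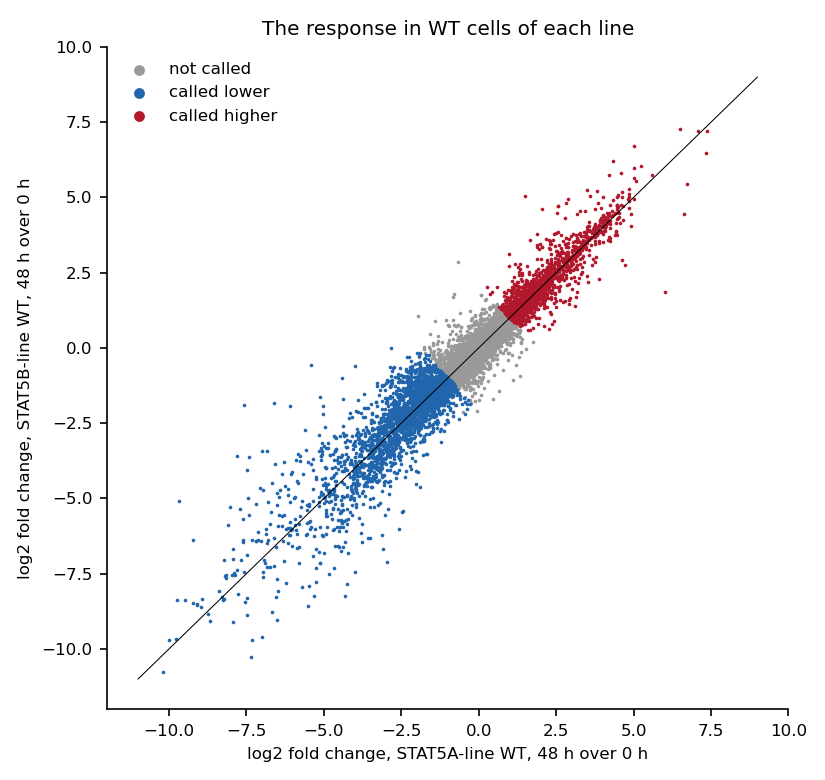
Log2 fold change at 48 h over 0 h in WT cells of the STAT5A line (x axis) and of the STAT5B line (y axis), each from 3 samples against 3, for the genes tested. Points are genes colored by the call over both lines, and the diagonal marks equal change; both lines called 4592 genes the same way.

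The genes of the IL-2 receptor were read first, since they set how cells receive the cytokine. Il2ra, the high-affinity alpha chain, ranged over 1.76, 2.40 and 4.26 RPKM (lowest, median and highest) at 0 h and over 40.1, 56.5 and 63.0 RPKM at 48 h. No sample at 48 h came near those at 0 h, and the rise was 18.0-fold (log2 fold change 4.17, SE 0.22; edgeR adjusted p = 1.2e-10). Il2rb, the beta chain shared with the IL-15 receptor, rose 2.38-fold from a median of 144.4 to one of 391 RPKM and was the most abundant subunit at 48 h. Il2rg, the common gamma chain, was the most abundant at 0 h with a mean of 217 RPKM, and its log2 fold change of 0.29 (SE 0.066) was not called. Of the 3 subunits 2 were thus called higher and 0 lower.

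Stat5a and Stat5b themselves were not called. Stat5a read 19.0, 20.8 and 21.8 RPKM at 0 h and 17.1, 18.7 and 19.1 RPKM at 48 h (log2 fold change −0.32, SE 0.038). Stat5b read 23.4, 27.6 and 29.7 RPKM at 0 h and 20.9, 21.9 and 23.5 RPKM at 48 h (−0.47, SE 0.048). Both differences were small and passed the adjusted p threshold but not the 2-fold one. Jak2, a kinase of other cytokine receptors, was not called at a log2 fold change of −0.99 but was called lower under several alternatives, such as DESeq2 (−1.02).

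Genes linked to STAT5 as feedback inhibitors, survival factors and growth regulators were higher for 11 of 15 and lower for 2, against 16.3% and 21.4% of all genes tested. Their median log2 fold change was 1.61. Cish, an inhibitor of cytokine receptor signaling, ranged over 3.20, 4.40 and 8.24 RPKM at 0 h and over 48.8, 56.3 and 59.4 RPKM at 48 h, a 9.32-fold rise. Socs2 and Socs1, inhibitors of the same family, rose 9.85-fold and 7.73-fold. The strongest of the group was Lta, which encodes lymphotoxin alpha, with medians of 3.48 RPKM at 0 h and 80.3 RPKM at 48 h (19.7-fold; log2 fold change 4.30, SE 0.093). Bcl2l1, which encodes the survival protein BCL-XL, rose 5.21-fold from a median of 5.37 to 32.0 RPKM, and Bcl2 rose 2.5-fold. Socs3 (log2 fold change −1.19 over both lines and −0.94 in the STAT5A line) and the kinase gene Pim3 (−1.58) fell. Mcl1, another survival gene, read a mean of 125.05 RPKM at 0 h and 74.9 RPKM at 48 h and was not called (−0.90, SE 0.038), nor was Pim1 (−0.77, SE 0.17). Within the wider BCL2 family, 3 of 15 genes tested rose (Bcl2l1, Bcl2 and the pro-apoptotic Bak1) and 4 fell (2 to 7 under the alternatives), shares near the 16.3% and 21.4% of all genes tested. Those that fell included Pmaip1 and Bbc3, which encode the pro-apoptotic proteins NOXA and PUMA, by 10.6-fold and 8.94-fold.

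Most of this group had already moved at 4 h. Of the 11 genes called higher, 10 had a mean RPKM at 4 h at least 2-fold that at 0 h. Myc, a transcription factor for growth, read means of 29.8, 90.0, 104 and 93.9 RPKM at 0, 4, 24 and 48 h. Bcl2 read 23.7, 102, 92.5 and 65.9 RPKM, and so was highest at 4 h. Il2ra, in contrast, was highest at the last time, with means of 2.77, 16.3, 21.8 and 55.2 RPKM. Sample 2 of the STAT5A line at 4 h read low for many genes (Cish at 14.8 RPKM against a median of 44.1), with 44.86% of its mapped reads on the transcripts, which widens the spread at that time.

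**Figure D3:**
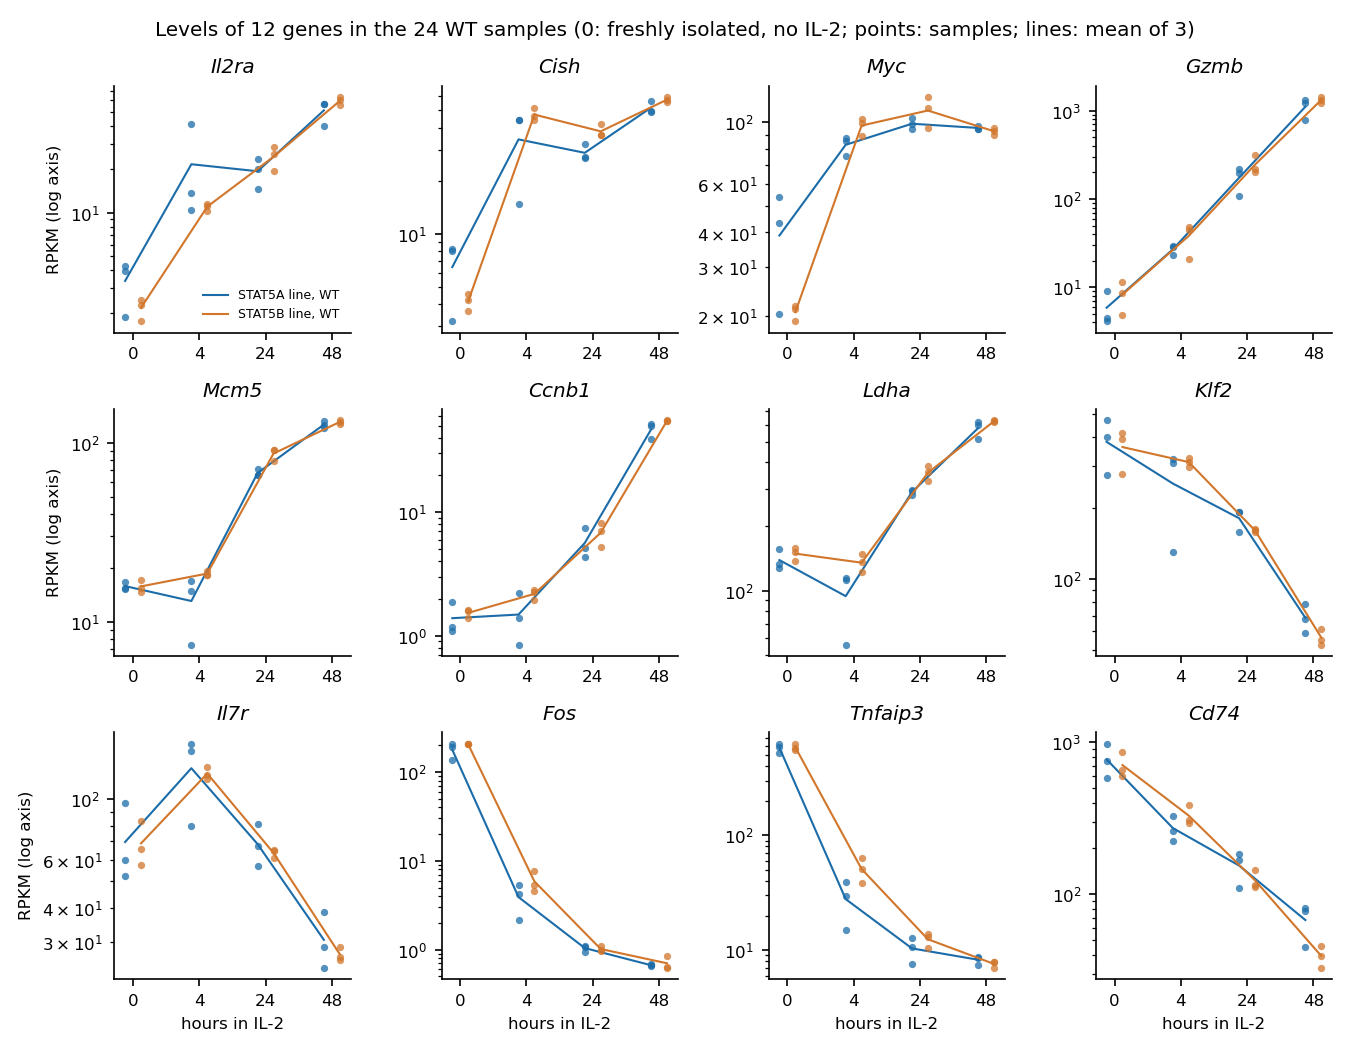
RPKM (log axis) of 12 genes in each of the 24 WT samples at 0, 4, 24 and 48 h, with STAT5A-line samples in blue, STAT5B-line samples in orange and lines through the means of 3 samples; the 4 times are evenly spaced on the axis. Cish and Myc reach most of their rise by 4 h, Mcm5 and Ldha rise between 4 h and 48 h, Ccnb1 rises mainly from 24 h to 48 h, and Fos and Tnfaip3 have dropped by 4 h.

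Of the pathway lists, those of G1 and S phase, DNA replication and mitosis had the largest shares of genes called higher in the edgeR fit. The G1 and S phase list of 23 genes held cyclins, cyclin-dependent kinases (CDKs), E2F factors and others such as Rb1 and Skp2. Of these, 20 were higher and 1 lower (median log2 fold change 2.68). Cdk1, the kinase that drives mitosis, and Ccna2, which encodes cyclin A2, rose 25.8-fold and 24.2-fold. E2f1, an activator of S phase genes, rose 7.06-fold. Ccnd2 and Ccnd3, the D-type cyclins of lymphocytes, reached means of 118.4 and 181 RPKM at 48 h, and Ccnd3 rose 3.05-fold. Ccnd1, the D-type cyclin that lymphocytes use little, was the one that fell, from a median of 4.62 to 0.289 RPKM (log2 fold change −4.18, SE 0.21). Of 8 CDK inhibitors 2 were higher and 2 lower, against 16.3% and 21.4% of all genes tested. Cdkn1b, which encodes p27 and restrains entry into S phase, ranged over 50.3, 55.1 and 57.8 RPKM at 0 h and over 21.6, 22.5 and 24.3 RPKM at 48 h, a 2.68-fold fall without overlap. Cdkn2c, which encodes p18, rose 4.99-fold in the same cells.

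DNA replication genes were higher for 49 of 52 and lower for none, with a median log2 fold change of 2.38. Mcm10, a factor that starts replication forks, rose 29.4-fold from 0.500, 0.731 and 0.886 RPKM to 20.9, 24.4 and 25.7 RPKM. Rrm2, the regulated subunit of ribonucleotide reductase, which makes DNA building blocks, rose 25.5-fold to a mean of 172 RPKM. Pcna, the sliding clamp of DNA polymerases, was the most abundant member at 48 h with a mean of 451 RPKM, but rose only 2.77-fold, from a mean of 145.2 RPKM at 0 h. Mcm5, a subunit of the replicative helicase, rose 7.26-fold. Gins4, Cdt1 and Dbf4 were not called, with log2 fold changes of 1.00, 0.42 and 0.20, and Gins4 was called higher under several alternatives, such as limma on log2(RPKM + 1) (1.10).

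Mitosis and kinetochore genes were higher for 50 of 52 and lower for none, and their median of 3.86 was the highest of the pathway lists. Ccnb1, which encodes cyclin B1, ranged over 1.09, 1.49 and 1.89 RPKM at 0 h and over 39.1, 53.1 and 55.4 RPKM at 48 h, a 30.7-fold rise (log2 fold change 4.94, SE 0.11; edgeR adjusted p = 5.8e-15). Plk1, a mitotic kinase, rose 22-fold, and Mki67, which encodes the proliferation marker Ki-67, rose 13.6-fold to a mean of 91.3 RPKM. Ube2c, a ubiquitin-conjugating enzyme of the anaphase-promoting complex, was the most abundant member at 48 h, at a mean of 140 RPKM. Pttg1, which encodes securin, was not called and had a negative sign (−0.65, SE 0.073). Among the Reactome pathway sets, leaving out those that share most genes with a higher one, the highest medians were those of sets of DNA replication, namely E2F-mediated regulation of DNA replication (2.37 over 27 genes), DNA strand elongation (2.17 over 32) and activation of ATR in response to replication stress (1.97 over 37), followed by Mitotic Prometaphase (1.93 over 99). Of 670 Reactome sets described, 20.1% had a median of at least 1 and 3.13% a median of at most −1.

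The replication and mitosis genes had risen alike by 24 h, and the mitosis genes stood further above 0 h at 48 h, a difference that was not tested. Summed over the list, DNA replication genes read means of 637, 584, 1861 and 3152 RPKM at 0, 4, 24 and 48 h, and mitosis genes read 177, 183, 446 and 1684 RPKM. At 24 h the mean of 43 of the 49 replication genes called higher was at least 2-fold that at 0 h, and so was the mean of 44 of the 50 mitosis genes. From 24 h to 48 h the median log2 ratio to 0 h went from 1.92 to 2.56 for the replication genes and from 2.02 to 4.08 for the mitosis genes. At 4 h both medians were near 0 (−0.11 and 0.10).

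The promoters of these 2 lists were searched for words that cell cycle factors bind. E2F factors bind sites such as TTTGGCGC and TTTCCCGC, and genes of mitosis often carry a cell cycle homology region, TTTGAA, together with a CCAAT box. In windows from 250 bases before to 50 bases after the RefSeq start site (GRCm38.p6), searched on both strands, 12 of 44 replication genes with a window (27.3%) held one of the E2F words, against 1.80% of 27025 genes with a window, 3.37% of the 10309 among them that were tested and 4.76% of 42 mitosis genes. TTTGAA with CCAAT in 1 window was found for 23 of 42 mitosis genes (54.8%), against 7.97% of all genes, 6.05% of those tested and 9.09% of replication genes. A match is a description of the letters, not a site shown to be bound. The 4 replication genes with the largest rise among those with an E2F word before the start site are shown here, with the word at most 165 bases before that start. Each stretch reads 5′ to 3′ on the strand of the gene, and capitals mark the E2F word, here in its reverse complement.
Cdc6 (chr11:98907998-98908035, + strand): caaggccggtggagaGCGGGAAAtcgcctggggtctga
Mcm5 (chr8:75109345-75109382, + strand): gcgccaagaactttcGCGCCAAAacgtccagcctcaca
Pola1 (chrX:93632271-93632308, − strand): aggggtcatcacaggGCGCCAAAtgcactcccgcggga
Mcm7 (chr5:138172026-138172063, − strand): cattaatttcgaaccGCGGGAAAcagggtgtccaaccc

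These genes encode a loader of the replicative helicase (Cdc6, log2 fold change 3.93), helicase subunits (Mcm5, 2.86, and Mcm7, 2.44) and the catalytic subunit of DNA polymerase alpha (Pola1, 2.74). Of the mitosis genes with both words before the start site, Espl1, Kif11, Prc1 and Ube2c had the largest rises, and the first 3 are shown because the words lie close together and within 62 bases of the start. Ube2c held several such words. Capitals mark CCAAT or TTTGAA, or the reverse complement of either.
Espl1 (chr15:102296234-102296286, + strand): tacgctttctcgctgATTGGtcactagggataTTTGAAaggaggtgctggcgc
Kif11 (chr19:37376322-37376381, + strand): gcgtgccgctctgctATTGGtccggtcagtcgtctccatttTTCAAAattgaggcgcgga
Prc1 (chr7:80294399-80294466, + strand): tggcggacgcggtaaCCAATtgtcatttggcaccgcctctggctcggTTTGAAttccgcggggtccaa

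Espl1 encodes separase, which cuts cohesin at anaphase (log2 fold change 4.07), and Kif11 (4.06) and Prc1 (4.06) encode a motor and a crosslinker of the spindle. The letters TTCNNNGAA, the core of the site that STAT proteins bind, were present for 3 of 11 of the STAT5-linked genes with a window (27.3%), against 9.55% of all genes and 8.45% of those tested, 11.4% of replication genes, 14.3% of ribosome biogenesis genes and 0 of 42 mitosis genes. The E-box CACGTG, a word that MYC binds, was present for 9 of 35 ribosome biogenesis genes (25.7%), against 8.09% of all genes and 11.4% of those tested. Of the STAT5-linked genes Socs3 held the STAT word 154 bases before its start, shown here because Socs3 was one of the 2 members of its list that fell.
Socs3 (chr11:117969497-117969535, − strand): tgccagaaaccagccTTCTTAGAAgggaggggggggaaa

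Genes of growth and metabolism were called higher more often than lower in each list, with many members not called. Ribosome biogenesis genes were higher for 22 of 40 and lower for none, with a median log2 fold change of 1.11. Ncl, which encodes nucleolin, rose 2.28-fold to a mean of 267 RPKM, and Nop2, an rRNA methyltransferase, rose 3.78-fold. Npm1, which encodes nucleophosmin, was the most abundant member at 48 h (mean 1173 RPKM) and was not called (0.90, SE 0.073). Aminoacyl-tRNA synthetase genes were higher for 15 of 20, led by Wars, the tryptophanyl enzyme, at 4.63-fold. Proteasome genes were higher for 24 of 31, with log2 fold changes from 0.27 to the 1.72 of Psma5. Respiratory chain genes were higher for 15 of 39, and 9 of 39 were called when the genes were filtered by RPKM.

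Glycolysis genes were higher for 11 of 20 and lower for none (median log2 fold change 1.37). Gapdh, which encodes a glycolytic enzyme often used as a reference gene, ranged over 303, 327 and 345 RPKM at 0 h and over 948, 1104 and 1138 RPKM at 48 h, a 2.99-fold rise. Ldha, which makes lactate, rose 3.73-fold to a mean of 602 RPKM, and Tpi1 rose 7.36-fold, the largest change of the list. The glucose transporter genes Slc2a1 and Slc2a3 had negative signs and were not called (−0.50 and −0.40). Serine, glycine and one-carbon enzymes were higher for 11 of 13 (median 2.08). Psat1, of serine synthesis, rose 9.25-fold, and Shmt1, which passes one-carbon units to folate, rose 11-fold. Nucleotide synthesis genes were higher for 15 of 20 and sterol and fatty acid synthesis genes for 17 of 28, with Idi1, of the isoprenoid pathway, at 7.73-fold and Fasn, the fatty acid synthase, at 3.89-fold. Among nutrient transporters 8 of 15 were higher and 1 lower, against 16.3% and 21.4% of all genes tested, and 5 of 13 were higher with the filter of 1 RPKM. Tfrc, the transferrin receptor that takes up iron, rose 4.50-fold, Slc7a5, a carrier of large neutral amino acids, rose 4.14-fold, and Slc38a2, a carrier of small neutral amino acids, fell 2.31-fold.

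**Figure D4:**
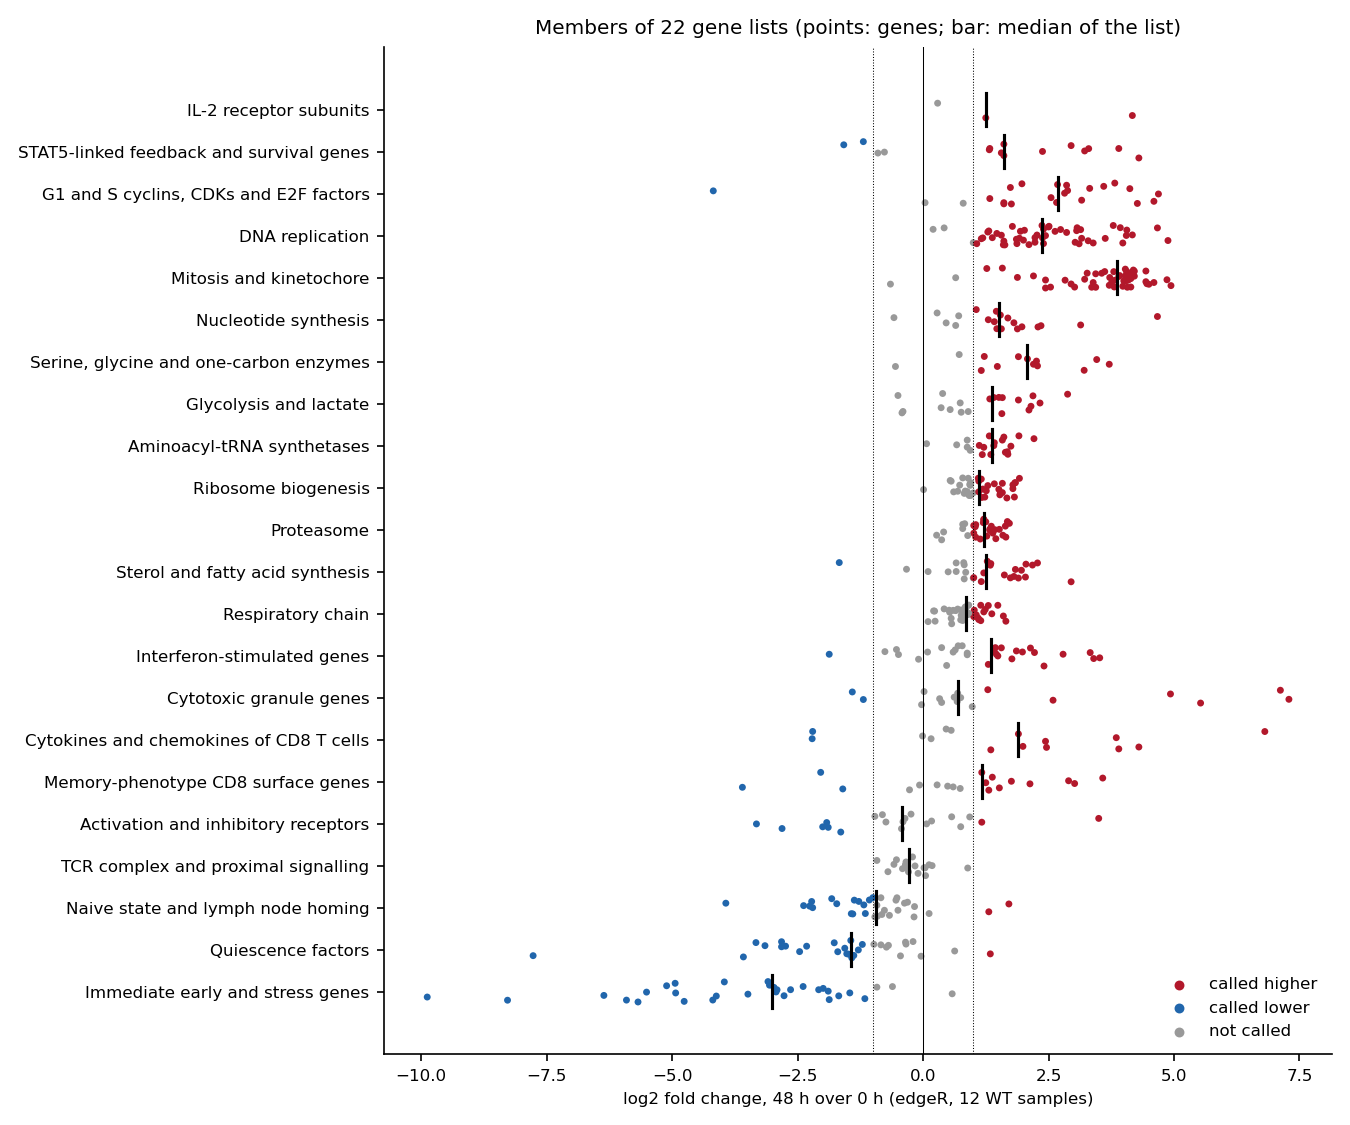
Log2 fold change at 48 h over 0 h (x axis) of each tested member of 22 gene lists (rows), from edgeR over 12 WT samples, with red points called higher, blue called lower and gray not called; a black bar marks the median of a list and dotted lines mark a 2-fold change. The mitosis list has the highest median (3.86) and the immediate early and stress list the lowest (−3.02), while the T cell receptor list stays within 2-fold.

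Genes of cytotoxic function changed unevenly. Gzmb, which encodes granzyme B, a protease that triggers death of target cells, had the largest rise among the 15 rises named by a fixed rule. It read 4.10, 4.44 and 9.04 RPKM in the STAT5A line and 4.86, 8.60 and 11.3 RPKM in the STAT5B line at 0 h, and 784, 1239 and 1317 RPKM and 1341, 1426 and 1221 RPKM at 48 h. The lowest sample at 48 h lay far above every sample at 0 h (156-fold rise; log2 fold change 7.29, SE 0.25; edgeR adjusted p = 6.8e-13), and Gzmb became one of the 10 genes with the largest gain in RPKM. Its mean was 32.6 RPKM at 4 h and had a range of 109.02 to 314.5 RPKM at 24 h. Gzmc, a neighboring granzyme gene, rose by 7.12 on the log2 scale but only to a mean of 15.7 RPKM, from 3 to 8 reads per sample at 0 h. Gzme and Gzmg rested on at most 1 read in any 0 h sample and at most 17 and 15 reads at 48 h, so no fold is given. Prf1, which encodes perforin, was not called (mean 13.8 RPKM at 0 h and 24.7 RPKM at 48 h; 0.69, SE 0.055), nor was Nkg7, a granule membrane gene (0.75, SE 0.091). Srgn, which encodes the granule proteoglycan serglycin, fell (−1.41). Of the 17 granule genes tested 6 were called higher, Gzme and Gzmg among them, and 2 lower, against 16.3% and 21.4% of all genes tested. Since Gzmc, Gzme and Gzmg passed the filter through their 48 h reads alone, this count is a description only. With the filter of 1 RPKM, 4 genes were higher.

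Among cytokine and chemokine genes 9 of 15 were higher and 2 lower. Lif, which encodes leukemia inhibitory factor, rose by 6.81 on the log2 scale from 0.114, 0.165 and 0.541 RPKM to 23.3, 26.1 and 36.9 RPKM. Ifng, the gene of interferon gamma, rose 5.5-fold, with means of 9.20, 1.88, 36.8 and 56.0 RPKM at 0, 4, 24 and 48 h, and so was lower at 4 h than before culture. Ccl5, a chemokine of memory CD8+ T cells, fell 4.63-fold from a mean of 450 RPKM. Interferon-stimulated genes were higher for 16 of 30 and lower for 1. Gbp2 and Igtp, GTPases induced by interferon gamma, rose 10.6-fold and 10.1-fold, and both were higher at 24 h (means of 403 and 440 RPKM) than at 48 h (258 and 294 RPKM). Of the 16 risers 13 were at a lower mean at 48 h than at 24 h.

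Surface receptors and transcription factors of effector and memory cells were called in both directions. Of 19 genes of memory-phenotype CD8+ T cells 10 were higher and 3 lower, against 16.3% and 21.4% of all genes tested. Il12rb2 and Il12rb1, the chains of the IL-12 receptor, rose 12-fold and 8.11-fold, and the chemokine receptor gene Cxcr3 rose 4.38-fold. Itgae, the integrin subunit CD103, fell 12.1-fold, and Cd44, the usual surface marker of memory cells, was not called (−0.27). Of 20 activation and inhibitory receptors 2 were higher and 6 lower. Tnfrsf9, the costimulatory receptor 4-1BB, rose 11.3-fold. Ctla4, an inhibitory receptor, and Cd69, an early activation marker, fell 9.99-fold and 7.01-fold. Among 21 effector and memory transcription factors 4 were higher and 5 lower, shares near the 16.3% and 21.4% of all genes tested. Those higher included Tbx21 and Eomes, the T-box factors of effector cells, at 3.03-fold and 2.93-fold, Zbtb32, a repressor, at 18.2-fold and Mycn, a relative of Myc, at 33.4-fold from a mean of 0.0862 to one of 3.24 RPKM. Bcl6, a repressor linked to memory, fell (−2.95), and Id2, the most abundant of the list, was not called (0.33, SE 0.10). The T cell receptor complex and its proximal kinases were called for 0 of 19 genes. Their log2 fold changes ranged from −0.92 for Cd6 to 0.89 for Thy1, with a median of −0.29 that stayed between −0.43 and −0.12 under the alternatives tried, and Thy1 was called higher with limma on the RPKM scale and Cd6 lower with the filter of 1 RPKM.

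Quiescence factors, which hold lymphocytes in a resting state, were lower for 19 of 30 and higher for 1, against 21.4% and 16.3% of all genes tested. Their median log2 fold change was −1.43, and their summed level fell from 2107 to 674 RPKM on average. Klf2, the factor that maintains quiescence and drives S1pr1, read 397, 469 and 275 RPKM in the STAT5A line and 278, 391 and 415 RPKM in the STAT5B line at 0 h. At 48 h it read 78.2, 59.2 and 68.0 RPKM and 55.2, 52.7 and 61.5 RPKM. The groups did not overlap, and the fall was 6.68-fold (log2 fold change −2.74, SE 0.13; edgeR adjusted p = 4.3e-11). Klf4, a related factor that restrains proliferation, fell 218-fold from a median of 29.4 to 0.175 RPKM. Btg1, an antiproliferative factor that recruits the machinery of mRNA decay, ranged over 303, 322 and 346 RPKM at 0 h and over 37.1, 40.2 and 46.7 RPKM at 48 h (8.88-fold lower). Tob1, of the same family, fell 10.1-fold. Tsc22d3, the glucocorticoid-induced factor GILZ, fell 12-fold, and Txnip, which limits glucose uptake, fell 3.25-fold. Foxo1, a central factor of the naive state, fell by 1.52 on the log2 scale, and Foxo3 by 1.21 (not called with limma on log2(RPKM + 1), at −0.95). Tsc1, Tsc2, Foxp1 and Slfn2 were not called, with log2 fold changes from −0.84 for Foxp1 to 0.63 for Slfn2. Ddit4, an inhibitor of mTORC1, was the one that rose, with a log2 fold change of 0.83 for the STAT5A line against 1.87 for the STAT5B line.

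The quiescence factors differed in how far they had fallen by 4 h. Klf2 read means of 371, 283, 171 and 62.5 RPKM at 0, 4, 24 and 48 h, and Cdkn1b read 54.4, 54.7, 34.6 and 22.8 RPKM. Klf4, in contrast, was at 1.09 RPKM by 4 h. Of the 19 genes called lower, 14 had a lower mean at 4 h than at 0 h, 8 were at least 2-fold lower by 4 h and 18 were lower at 48 h than at 24 h.

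Naive-state and lymph node homing genes were lower for 15 of 32 and higher for 2, with a median of −0.94. Ccr7, the receptor that brings cells into lymph nodes, ranged over 294, 367 and 470 RPKM at 0 h and over 75.9, 89.1 and 109.3 RPKM at 48 h, a 4.79-fold fall without overlap. Tcf7, which encodes the naive and memory factor TCF1, fell 2.58-fold but remained at a mean of 155 RPKM. S1pr1, the receptor for exit from lymphoid tissue, fell 3.53-fold. Il7r, the receptor of the survival cytokine IL-7, fell 2.69-fold, after a mean of 126.97 RPKM at 4 h that was above the 69.2 RPKM at 0 h. Dusp10, a phosphatase of MAP kinases, had the largest fall of the list (15.2-fold). Lef1 and Satb1 were not called (−0.82 and −0.52). Ms4a4b, a membrane protein gene of T cells, rose 3.27-fold, and Ly6c1 rose by 1.31 on the log2 scale.

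Immediate early and stress genes had the deepest falls of any pathway list. Of 32 genes 29 were lower and none higher (median log2 fold change −3.02). Fos, a subunit of the AP-1 transcription factor, read 135.5, 208 and 191 RPKM in the STAT5A line and 206, 204 and 205 RPKM in the STAT5B line at 0 h, and between 0.625 and 0.842 RPKM in all 6 samples at 48 h. The fall was 311-fold (log2 fold change −8.28, SE 0.12; edgeR adjusted p = 1.8e-16). Fosb, a second AP-1 subunit, fell 942-fold. Tnfaip3, which encodes A20, a brake on NF-kB, fell 82.1-fold from 519, 582 and 628 RPKM to 7.02, 7.89 and 8.76 RPKM. Junb fell 18.2-fold from a mean of 667 RPKM. These falls were early, since 25 of the 29 were at least 2-fold lower by 4 h and Fos was then at a mean of 4.89 RPKM. The 0 h cells were taken straight after isolation, and the part of isolation in these 0 h levels was not tested. The stress-induced chaperone gene Hspa1a also varied among 0 h samples, at 13.7, 33.3 and 8.88 RPKM in the STAT5A line and 1.59, 5.95 and 5.96 RPKM in the STAT5B line, and its reads cannot be separated from those of its near-identical copy Hspa1b.

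The genes that changed most in absolute level were named by their difference in mean RPKM. The 10 largest gains in mean RPKM were those of Actb, Ppia, Gzmb, Ptma, Actg1, Pfn1, Gapdh, Eif5a, Gm6793 and Ldha. Ptma and Pfn1 rose by just over the threshold (1.01 each) and were not called when some samples were left out. Neither was called with DESeq2 (0.97 each), with DESeq2 size factors in edgeR (0.96 each) or with the filter of 1 RPKM (0.86 each). Actb, which encodes beta-actin, went from 733, 841 and 1043 RPKM to 2855, 3216 and 3364 RPKM. The 10 largest losses included those of Rps27rt, Tpt1, Rps27, Cd74, Junb, Tnfaip3, H2-Aa, Eif1 and H2-Ab1. Tpt1, a translationally controlled growth protein gene, went from a mean of 4511 to 2328 RPKM (log2 fold change −1.12, SE 0.038). Rps27 and Rps27rt were both placed on chromosome 3 and had almost the same reads. The highest counts were 132425 and 131967 at 0 h and 55830 and 55749 at 48 h. Their fold changes were the same (both −1.37, SE 0.078), so the 2 entries are to be read as 1 loss. Whether the same reads were counted for both was not tested. Of the 15 largest rises by fold, those outside the lists were Myl10, Clhc1, D630039A03Rik, Fignl1, Asns, Pbk, Lrr1, Ncapg and AA467197. Asns, the asparagine synthetase, rose 31.8-fold, and Ncapg, a condensin subunit, rose by 4.81 on the log2 scale. Of the 15 largest falls, those outside the lists were Apol8, Gm6377, 5430435G22Rik, Plbd1, Mir27a and Il1b. Il1b, which encodes the inflammatory cytokine IL-1 beta of myeloid cells, fell by 5.67 on the log2 scale, and Plbd1, a phospholipase gene of myeloid and dendritic cells, fell by 5.87. Apol8 rested on 1 to 8 reads per sample at 48 h and Mir27a on at most 4.

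Genes of cells other than CD8+ T cells were measurable at 0 h and low at 48 h. B cell markers were lower for 20 of 20, against 21.4% of all genes tested, with a median log2 fold change of −2.99. Their summed level was 2030, 2604 and 1516.5 RPKM in the STAT5A line and 1539, 1675.5 and 2140 RPKM in the STAT5B line at 0 h, and 229, 207 and 106.3 RPKM and 94.7, 82.1 and 113.1 RPKM at 48 h. The highest sample at 48 h was thus below the lowest at 0 h by several fold, and most of the sum came from the class II genes Cd74, H2-Aa, H2-Ab1 and H2-Eb1. All 20 genes were still lower without samples 1 and 2 of the STAT5A line at 0 h, and likewise without those 2 at 48 h. Cd74, the class II invariant chain and the most abundant marker, ranged over 581, 707 and 979 RPKM at 0 h and over 32.7, 45.3 and 81.0 RPKM at 48 h, a 16.0-fold fall. H2-Aa and H2-Ab1, which encode class II chains, fell 19.8-fold and 27.3-fold. Class II genes are also expressed by dendritic cells and macrophages. Cd79a and Cd79b, the signaling chains of the B cell receptor, were 7.16-fold and 2.69-fold lower, the latter the smallest fall of the list. Cd79a at 48 h was at 11.6, 9.76 and 3.22 RPKM in the STAT5A line and 3.18, 2.54 and 2.83 RPKM in the STAT5B line. Samples 1 and 2 of the STAT5A line were thus the highest of the 6 at this time too.

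Markers of myeloid cells were lower for 20 of 21 macrophage and monocyte genes tested (11 to 23 genes under the alternatives) and 8 of 8 dendritic cell genes. Cd14 and Clec4a3, among the 20, had at most 3 and 2 reads in any sample at 48 h and passed the filter through their 0 h counts alone. Cd209a, among the 8 dendritic cell genes, had 0 to 4 reads per sample at 48 h and likewise passed through its 0 h counts. Both counts are therefore given only as a description. Of 13 neutrophil genes 9 passed the filter on low counts and 8 were called lower, but 6 of those 8 had at most 3 reads in any sample at 48 h and passed through their 0 h counts alone, so their number is given only as a description (2 to 12 under the alternatives). The summed level went from a mean of 89.4 to 12.2 RPKM for macrophage and monocyte markers, from 53.1 to 3.58 RPKM for dendritic cell markers and from 18.2 to 1.65 RPKM for neutrophil markers. Csf1r, the receptor that monocytes and macrophages depend on, had 520 to 973 reads per sample at 0 h and 0 to 16 at 48 h. Siglech, a receptor of plasmacytoid dendritic cells, fell 17.8-fold, and Itgax, which encodes CD11c, fell 11.6-fold. S100a8 and S100a9, the calprotectin genes of neutrophils, had 54 to 205 and 86 to 398 reads per sample at 0 h and at most 1 and 3 reads in any sample at 48 h. Retnlg, another neutrophil gene, had 18 to 49 reads at 0 h and 0 in all 6 samples at 48 h, where a count of 0 allows up to 3. No fold is given for these 3 genes. Of 8 erythroid genes that were lower, the globin gene Hbb-bs ranged from 9.81 to 96.5 RPKM at 0 h and was at most 2.53 RPKM at 48 h. Gata1, a factor of erythroid cells and also of mast cells and megakaryocytes, was the one of the 9 tested that rose, from a mean of 0.217 to 1.53 RPKM.

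**Figure D5:**
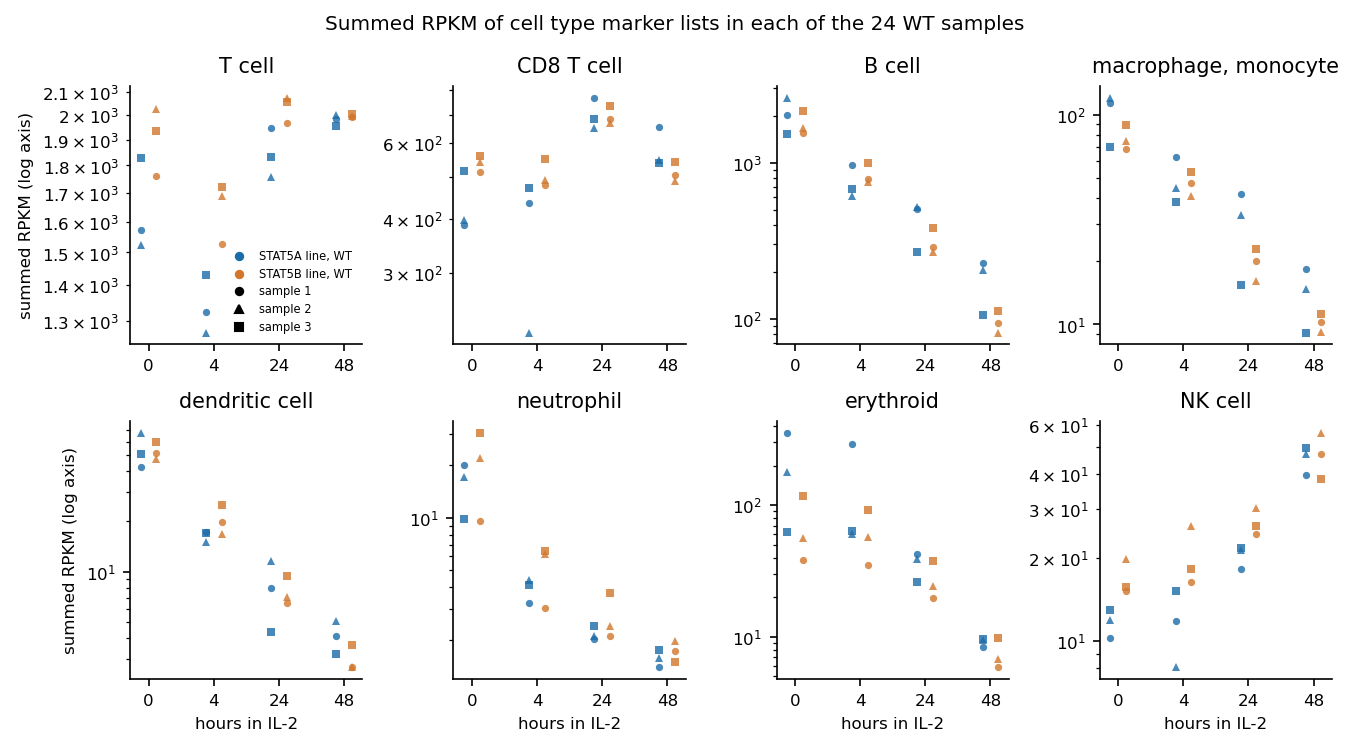
Summed RPKM (log axis) of 8 lists of cell type markers in each of the 24 WT samples at 0, 4, 24 and 48 h, with STAT5A-line samples in blue, STAT5B-line samples in orange and shapes for samples 1 to 3; the 4 times are evenly spaced on the axis. T cell and CD8 T cell markers have sums at 48 h near those at 0 h (means of 1989 against 1774.5 RPKM and 548 against 487 RPKM), with higher CD8 sums at 24 h, while B cell, macrophage, dendritic cell, neutrophil and erythroid markers drop by 48 h, and NK cell markers rise from a mean of 14.3 to 46.4 RPKM.

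The marker lists differed in how far they had fallen by 4 h. B cell markers summed to means of 1917.5, 797, 373 and 138.6 RPKM at 0, 4, 24 and 48 h, and dendritic cell markers to 53.1, 18.5, 7.82 and 3.58 RPKM. Of the genes called lower, 11 of 20 B cell, 15 of 20 macrophage and monocyte and 7 of 8 dendritic cell markers were at least 2-fold below 0 h at 4 h, against 0 of 8 erythroid, 1 of 5 plasma cell and 1 of 3 CD4+ and regulatory T cell markers. Under the alternatives, 4 to 9 erythroid and 2 to 5 plasma cell genes were called lower. CD4+ T cell and regulatory T cell markers were lower for 3 of 4, but for 1 of 4 with limma on log2(RPKM + 1) and 2 of 4 in the STAT5A line alone. Cd4 fell 9.99-fold from a median of 6.92 to 0.793 RPKM. Foxp3, the factor of regulatory T cells, fell by 1.43 on the log2 scale, with overlapping samples, after a mean of 5.37 RPKM at 4 h against 1.61 RPKM at 0 h. Marker genes of B cells, macrophages and dendritic cells were thus lower at 48 h, when Cd8a was at a median of 234 RPKM. The mean was then under 1 RPKM for 7 of 20 B cell, 19 of 23 macrophage and monocyte and 7 of 8 dendritic cell markers. Their part in the falls of other genes was not tested.

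NK cell markers went the other way. Of 7 tested 3 were higher and none lower, against 16.3% and 21.4% of all genes tested, and their summed level rose from 10.3 to 19.8 RPKM at 0 h to 38.4 to 56.4 RPKM at 48 h. Ncr1, which encodes the NK receptor NKp46, rose 4.63-fold, with 7.25, 5.37 and 2.96 RPKM in the STAT5A line and 1.59, 1.84 and 2.17 RPKM in the STAT5B line at 48 h. Klre1, the most abundant member, rose 3.81-fold to a mean of 27.8 RPKM. Killer lectin receptors such as Klre1 are also found on activated CD8+ T cells. The levels of NK markers moved in the same direction as those of the granule and memory-phenotype lists above, and their part in those rises was not tested.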

How the data were processed

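Libraries were made from polyadenylated RNA of splenic CD8+ T cells and sequenced as 50-base single reads. Per the submitters' processing notes, TopHat2 2.0.11, Bowtie2 2.2.6, SAMtools 0.1.8, bedtools 2.25.0 and edgeR were used with mm10 (GRCm38). The deposited files give, for each of 31682 RefSeq transcripts, raw read counts and RPKM values, which the authors computed per sample. The counting program and its strand setting are not given in the sources used here, so overlapping and antisense genes may share reads.

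The transcript with the greatest length was kept for each of 23992 symbols. For 562 symbols another transcript had more reads. Counts were filtered with filterByExpr (minimum count 10), scaled by TMM and fitted with edgeR 4.0.16 (R 4.3.3) by the quasi-likelihood test, with line as a block and time as the effect, over 12 samples. Genes that changed at least 2-fold were called where the p-value, adjusted by the method of Benjamini and Hochberg, was at most 0.05. The difference between lines was tested as a contrast of the 4 groups. Depth ranged from 39114574 to 60200653 reads, 69.22% to 74.06% of mapped reads at 0 h and 80.54% to 84.43% at 48 h. Fold changes are ratios of shares of the library. The test was tried on simulated data first. DESeq2 1.42.0 and limma 3.58.1 on log2(RPKM + 1) and log2(RPKM + 0.1) were alternatives.

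The text names the 15 largest rises and the 15 largest falls among called genes whose samples did not overlap within a line, with a mean of at least 5 RPKM at 48 h or 0 h, the 10 largest gains and the 10 largest losses in mean RPKM, and members of 42 lists by role, level and change. A few genes under these rules are not reported here. The groups compared, the lists and the genes were chosen with earlier results of these data known. Promoter windows are RefSeq sequences of GRCm38.p6, matched by symbol. No list was tested as a set.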

Additional observations from a re-analysis of the deposited data

How the results depend on the processing

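The count of genes higher at 48 h stayed within 1.5 times under the 27 alternatives. That of genes lower did too, except with a filter of 1 RPKM, which tests fewer genes (1627), and with limma over those genes. There it was 755 on log2(RPKM + 1) and 1125 on log2(RPKM + 0.1). Against the TMM-scaled fit RPKM adds less than the log2 ratio of 0.22, and other causes of the further drop were not tested. Of the 5334 calls, 0 were called in the opposite direction under any alternative. With 1 sample left out, 2252 to 2362 genes were higher and 3076 to 3260 lower. The line difference was called for 0% to 1.03% of genes with 1 sample left out (the highest without sample 3 of the STAT5A line at 0 h), for 0.0554% of those given an adjusted p by DESeq2, 0.0255% with no filter on low counts and 0.00688% without samples 1 and 2 of the STAT5A line at 0 h, an alternative chosen after seeing the data, as were those without samples 1 and 2 at 48 h and within each line.

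Same-numbered samples at 0 h and 48 h deviated together in the STAT5A line (correlations 0.22, 0.164 and 0.248, each sample best with its own number) but not in the STAT5B line (0.004, 0.02 and 0.074), so the numbers were not taken as pairs. With a replicate block 2319 genes were higher, 3023 lower and 0.0283% of genes differed between lines.

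The median of the BCL2 family turned negative with DESeq2 (−0.39), no filter (−0.34), a filter of 1 RPKM (−0.50), limma on log2(RPKM + 1) (−0.19) and limma on log2(RPKM + 0.1) (−0.20), and that of the GIMAP family with a filter of 1 RPKM (−0.01). Cd8b1 turned positive in the STAT5A line (0.13) and with both limma fits (0.07), and Cd8a turned negative in the STAT5B line (−0.04), all without a call. Socs3 (−0.94), Foxp3 (−0.94), Ddit4 (0.83), Gm6793 (0.88) and Ptma (0.87) lost their calls in the STAT5A line alone. Socs3 (−0.98), Foxp3 (−0.62) and Foxo3 (−0.95) also lost them with limma on log2(RPKM + 1), Tpt1 (−0.95) with both limma fits, and Actg1 (0.98), Ppia (0.97) and Gm6793 (0.91) with the filter of 1 RPKM. Calls were gained by Pim1 (−1.14) in the STAT5A line, Mcl1 (−1.04) with the filter of 1 RPKM and Npm1 with both limma fits (1.06) and in the STAT5B line (1.05). No culture without IL-2, which would separate IL-2 from time, was among the samples.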

Other observations

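Families grouped by symbol after their values were seen add to the growth genes. Of 77 cytosolic ribosomal protein genes 0 were higher and 1 (Rps27) was lower, and 75 had a negative log2 fold change (median −0.45). Of 73 mitochondrial ribosomal protein genes, by contrast, 39 were higher and 0 lower (median 1.02). Their summed level went from 1255 to 2619 RPKM.

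Histone cluster genes were higher for 46 of 67 and lower for 4 (median 1.75), with Hist1h3c at a log2 fold change of 4.26 and the linker histone gene Hist1h1c at −3.43. These transcripts mostly lack a poly(A) tail and were measured here after selection for one. Nucleoporin genes were higher for 13 of 21 and lower for 1. The lowest member was Nup62-il4i1 (−1.04), an entry taken in by its symbol that also names Il4i1, which is not a nucleoporin gene. Class I MHC genes, grouped here with genes of their light chain and of peptide loading, were called for 0 of 22 by edgeR. Log2 fold changes of this group ranged from −0.85 for H2-Q6 to 0.93 for H2-T24.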
